A study of Mus musculus with 2 samples.

Results

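The extracellular matrix genes of 2 mouse mesoangioblast clones, D351 and D16, were compared on Affymetrix oligonucleotide arrays, 1 U74 C array for each clone. Members were every probe set with a single annotated gene whose symbol begins with Col and a digit, Adam, Lox, Mfap, Mmp, Timp, Lama, Lamb, Lamc, Emilin, Fbln, Fbn, Ltbp, Smoc, Thbs, Tnc or Tnx, together with Bgn, Egfl6 and Cemip. The rule found 56 probe sets of 45 genes among 11868 probe sets, of which 7717 had 1 gene and stood for 5928 genes. The rule reads symbols, but it was written with earlier results of these arrays known, and Bgn, Egfl6 and Cemip were taken by their whole symbols. The symbols found were all those of collagens, other matrix proteins or matrix enzymes and their relatives, although the product of Mfap3l is a membrane protein and the ADAM proteins sit in the cell membrane.

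Mesoangioblasts are progenitors of mesodermal tissue that are found with embryonic vessels. D351 and D16 both came from the dorsal aorta of C57BL6 embryos at embryonic day 9.5, which was kept as an explant for 5 days before single cells were cloned on a feeder layer of mitomycin-treated embryonic fibroblasts and then passaged on gelatin, a denatured collagen. The labels name no transgene and no treatment for either. Each clone has a single array of total RNA, so no difference between D351 and D16 has a replicate check, no test was made, and precision is limited by having 1 array a clone. The series sets the clones against each other under the headings of smooth muscle differentiation and stem cells.

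The extracellular matrix is a mesh of secreted proteins that gives a vessel wall its strength and elasticity. Collagens are trimers of chains in which every triplet of residues begins with glycine, and they form fibrils, basement membrane sheets or bead-like microfibrils. Laminins organise the basement membrane, fibrillins with their partners scaffold elastic fibres, lysyl oxidases cross-link collagen and elastin, and matricellular proteins modulate how cells read the matrix. Metalloproteinases of the MMP, ADAM and ADAMTS families cut matrix and cell surface proteins, and TIMPs inhibit many of these enzymes.

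Intensities are the deposited values in arbitrary units, 1 for each probe set and clone. The median intensity of all probe sets was 6.2 in D351 and 6.5 in D16, and the pooled median of 6.4 was the floor. Values not above 6.4 are called dim and were set to it before taking log2, and a probe set or gene counts as measured if D351, D16 or both exceeded it. Log2 ratios are those of D351 minus D16, and a ratio with 1 dim side is a bound, written "at least". A gene is represented by its brightest probe set. Differences were sized against a 2-fold rule. Probe sets of the same gene scattered with an SD of 0.68 in their log2 ratios (409 pairs), against an SD of 0.83 for the ratios of all probe sets above the floor in both clones, so a 2-fold ratio of a single probe set is not far outside the disagreement between probe sets. Directions are relative to the average over the whole array, since 9 spiked hybridization control probe sets had a median log2 ratio of -0.67. Negative controls for bacterial and yeast transcripts reached 11.2.

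The matrix genes that could be measured were mostly higher in D351. Of 45 genes, 27 were measured and 18 were dim in D351 and D16 alike. Of the 27, 14 passed 2-fold towards D351, where 10.3% of all 3934 measured genes were, and 1 passed it towards D16, where 10.2% of all measured genes were. The remaining 12 lay within 2-fold. The median log2 ratio of the 27 was 1.06, beside -0.022 over all measured genes. A gene that is measured only through its brighter clone has to differ, so the 19 genes above the floor in both clones are given separately: towards D351, 11 of them passed 2-fold, beside 8.56% of 3061 genes of the array, and towards D16 none (0) did, beside 9.25%. Their median log2 ratio was 1.12, beside -0.016. With the floor at the 25th percentile, 1.8, 38 matrix genes were measured, of which 16 passed 2-fold towards D351, beside 14.4% of 5209 genes of the array, and 6 towards D16, beside 15.5%, and the median was 0.61. Without Bgn, Egfl6 and Cemip, which all passed 2-fold towards D351, 11 of 24 genes did and 1 towards D16, and the median was 0.73. This direction of the matrix genes was already known from earlier results of the same arrays and is not independent evidence.

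By kind of protein, the counts were as follows. Among collagens, laminins, microfibril proteins and matricellular proteins, 11 of 17 measured genes passed 2-fold towards D351 and 0 towards D16. The 11 include Bgn and Egfl6, which were taken by whole symbol with earlier results known. Among ADAM, ADAMTS and MMP genes, 1 of 7 measured genes passed 2-fold towards D351 and 1 towards D16, each near the 10.3% and 10.2% of all measured genes. Only 2 of these 7 were above the floor in both clones. These groups were set side by side with their values known, and the difference between them was not tested.

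**Figure D1:**
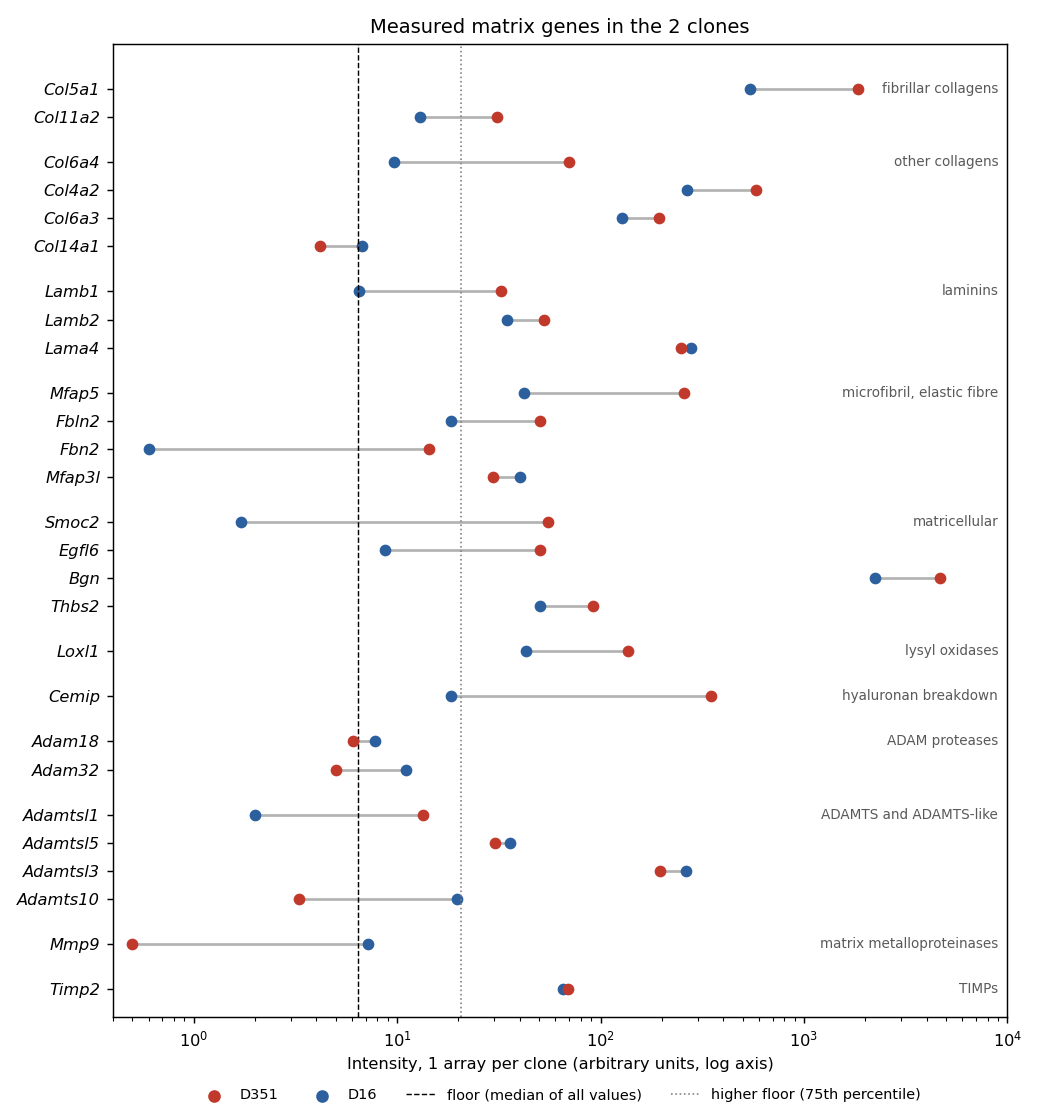
Deposited intensity of the 27 measured matrix genes in D351 (red) and D16 (blue) on a log axis, 1 array per clone, with each gene shown by its brightest probe set and genes ordered by subfamily. The dashed line marks the floor of 6.4 and the dotted line the higher floor of 20.7. The red point lies right of the blue one for 18 genes, among them every measured fibrillar collagen and matricellular gene.

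For 26 of the 45 genes the RefSeq promoter table of GRCm38.p6 held an entry. The 4 sequences below are the 250 bases before the annotated start of the genes with an entry whose ratios towards D351 were largest when a higher floor of 20.7 was used. They are shown so that the start regions of these 4 genes can be read beside their values. Mfap5, Loxl1 and Smoc2 had larger ratios or bounds than Fbln2 at that floor but no entry. Capitals mark every match to a TATA box (TATAAA, as given), a GC box (GGGCGG, either strand), a CCAAT box (CCAAT, either strand), an AP-1 motif (TGANTCA, either strand) or an MCAT motif (CATTCC, either strand), and each is written 5′ to 3′ on the strand of its gene.
Cemip, chr7:84086506-84086755, minus strand.
Cemip: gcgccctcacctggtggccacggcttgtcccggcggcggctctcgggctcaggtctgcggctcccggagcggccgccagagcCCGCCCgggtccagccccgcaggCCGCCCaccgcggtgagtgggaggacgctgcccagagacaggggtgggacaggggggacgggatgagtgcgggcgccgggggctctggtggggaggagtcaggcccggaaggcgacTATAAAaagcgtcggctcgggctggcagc
Col5a1, chr2:27886175-27886424, plus strand.
Col5a1: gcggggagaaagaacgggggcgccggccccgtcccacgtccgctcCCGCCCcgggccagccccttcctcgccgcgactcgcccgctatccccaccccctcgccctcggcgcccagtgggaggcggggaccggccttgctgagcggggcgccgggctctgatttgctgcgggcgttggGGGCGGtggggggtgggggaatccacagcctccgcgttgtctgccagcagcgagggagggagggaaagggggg
Col6a4, chr9:106096692-106096941, minus strand.
Col6a4: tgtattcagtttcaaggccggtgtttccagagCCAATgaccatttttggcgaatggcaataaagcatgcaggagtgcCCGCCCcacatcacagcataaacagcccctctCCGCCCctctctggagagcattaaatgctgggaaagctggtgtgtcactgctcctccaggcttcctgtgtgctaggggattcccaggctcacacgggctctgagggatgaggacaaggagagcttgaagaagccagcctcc
Fbln2, chr6:91212514-91212763, plus strand.
Fbln2: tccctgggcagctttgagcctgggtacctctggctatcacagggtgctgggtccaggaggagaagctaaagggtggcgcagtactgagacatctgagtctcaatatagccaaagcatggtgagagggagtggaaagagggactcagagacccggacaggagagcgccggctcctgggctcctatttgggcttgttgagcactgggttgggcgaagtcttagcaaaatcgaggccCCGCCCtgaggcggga
Cemip was the only one of these 4 with a TATA box, which ended 23 bases before the start. TATA boxes were found in 7.59% of all 32851 promoter windows of this length, and in 3 of 31 windows of matrix genes. All 4 windows held a GC box. Of the 9 genes past 2-fold towards D351 with an entry, all 9 held one, beside 21 of 31 windows of matrix genes and 32.7% of all windows. The letters of the GC box are all G or C, and whether its matches follow base composition was not tested. G and C made up 75.2% of the Cemip window and 76.4% of that of Col5a1. They made up 55.2% of that of Col6a4 and 58.8% of that of Fbln2, beside a median of 52.4% over all windows. CCAAT was present in 9 of 31 matrix windows and in 33.8% of all windows. The AP-1 letters were in 0 of 31 matrix windows and 6.75% of all, and the MCAT letters in 1 of 31 and 12.6% of all. A match describes the letters only.

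Both measured fibrillar collagens were higher in D351. Col5a1 encodes the alpha1 chain of type V collagen, which sits inside collagen I fibrils and limits their width. Its brightest probe set read 1838.3 in D351 and 543.2 in D16, a 3.38-fold higher level in D351. Another Col5a1 probe set, without a mark in its identifier, was dim in both clones, at 2.1 in D351 and 1.1 in D16, and so carries no ratio. Col11a2, a chain of the type XI collagen of cartilage and other tissues, read 31.0 in D351 and 13.0 in D16. That is 2.38-fold higher in D351, but with the floor at 20.7 its log2 ratio was at least 0.58, a bound short of 2-fold. Col5a2, which encodes the alpha2 chain of the same trimer as Col5a1, was dim in both clones by its single probe set (0.2 in D351 and 0.7 in D16).

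Of 8 other collagen genes 4 were measured, and 2 of these passed 2-fold towards D351, beside 10.3% of all measured genes. Col4a2 encodes a chain of the type IV network of every basement membrane. It read 579.8 in D351 and 266.3 in D16, a 2.18-fold difference on values well above either floor. Col6a4 encodes a chain of the beaded type VI microfibrils, and its 3 probe sets did not point one way. The brightest read 69.6 in D351 and 9.7 in D16 (7.18-fold higher in D351, and at least 3.36-fold over the higher floor). Another, also marked, read 18.8 in D351 and was dim in D16, at 3.7 (at least 2.94-fold higher in D351). The remaining probe set, without a mark, was dim at 4.4 in D351 and read 11.5 in D16, which bounds its log2 ratio at -0.85, towards D16. The Col6a4 difference therefore rests on its marked probe sets. Col6a3, another chain of type VI collagen, read 193.0 in D351 and 126.9 in D16, 1.52-fold apart. Col14a1, a fibril-associated collagen, stood at the floor, with 4.2 in D351 and 6.7 in D16. Col4a4, Col9a3, Col23a1 and Col25a1, the last by both of its probe sets, were dim in both clones.

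Laminin chains differed among themselves. Lamb1, the beta1 chain of the common laminins, read 32.3 in D351 and 6.5 in D16. The D16 value lay just above the floor, so the ratio of 4.97 turns on it, and with the higher floor Lamb1 was at least 1.56-fold higher in D351. Lamb2, the beta2 chain of vascular and synaptic basement membranes, read 52.7 in D351 and 34.5 in D16 by its brightest probe set while the other read 7.7 in D351 and was dim at 6.2 in D16. Those log2 ratios were 0.61 and at least 0.27, both under 2-fold, and the annotation gives both probe sets the same source sequence, so they are not independent readings. Lama4, the alpha4 chain of vascular laminins, was almost level, at 248.9 in D351 and 277.2 in D16. Lamc3 was dim in both clones.

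Among 8 genes of microfibrils and elastic fibres, 3 of the 4 that were measured passed 2-fold towards D351, beside 10.3% of all measured genes. Mfap5 encodes a small glycoprotein bound to fibrillin microfibrils. It read 257.2 in D351 and 41.9 in D16, 6.14-fold higher in D351 with either floor. A further Mfap5 probe set was dim in both clones, at 2.0 in D351 and 2.4 in D16, so this difference also rests on 1 probe set. Fbln2, fibulin 2, which links fibrillin, elastin and basement membranes, read 50.6 in D351 and 18.4 in D16 (2.75-fold higher in D351, and at least 2.44-fold over the higher floor). Fbn2, fibrillin 2 of developing microfibrils, read 14.4 in D351 and was dim at 0.6 in D16, at least 2.25-fold higher in D351 but dim in both with the higher floor. Mfap3l, whose name comes from its likeness to Mfap3, read 29.7 in D351 and 40.1 in D16. The 3 Emilin genes on the array and Ltbp4, a binding protein of latent TGF-beta, were dim in both clones.

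All 4 matricellular proteins and related glycoproteins were above 0, and 3 were past 2-fold towards D351, beside 10.3% of all measured genes. Bgn and Egfl6 are among these 3 and were taken by whole symbol with earlier results known, so the count is not a finding about the group. Smoc2, a secreted calcium-binding protein of the SPARC family, read 54.9 in D351 and was dim at 1.7 in D16. That is at least 8.58-fold higher in D351, and at least 2.65-fold over the higher floor. Its other probe set was dim in both clones, at 1.0 in D351 and 0.9 in D16. Egfl6, a secreted protein with EGF repeats that binds integrins, read 50.5 in D351 and 8.7 in D16, 5.80-fold higher in D351 and at least 2.44-fold over the higher floor. Bgn, biglycan, a small proteoglycan of collagen fibrils, read 4679.7 in D351 and 2238.3 in D16, 2.09-fold higher in D351. Thbs2, thrombospondin 2, which restrains angiogenesis and affects fibril assembly, read 91.3 in D351 and 50.6 in D16. Its ratio of 1.80 stayed under 2-fold.

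Loxl1, the lysyl oxidase among the members, and Cemip, taken by whole symbol with earlier results known, were higher in D351. Loxl1, a lysyl oxidase needed for elastic fibre upkeep, read 136.9 in D351 and 42.9 in D16, 3.19-fold higher in D351 by its single probe set, which has no mark. Cemip, which binds hyaluronan and promotes its breakdown, read 350.7 in D351 and 18.4 in D16. This 19.1-fold difference was the largest of the matrix genes and ranked 14 among the 3934 measured genes in the direction of D351. With the higher floor it was at least 16.9-fold. Cemip2, its relative outside the rule, was nearly level at 80.3 in D351 and 84.9 in D16.

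Of 7 measured ADAM, ADAMTS and MMP genes, 1 had a log2 ratio above 0 and 6 below it, with a median of -0.29. That median is the value of Adam18, a bound from 6.1 in D351 and 7.8 in D16. Adam18, Adam32 and Mmp9 did not exceed the brightest negative control, 11.2, in D351 or D16. Only Adamtsl3 and Adamtsl5 exceeded the floor in D351 and D16 alike, so the split gives no firm direction. Adamtsl3 and Adamtsl5 lay above 0, at 0.24 and 0.43, when the arrays were scaled to the hybridization controls. Adamts10, a protease linked to fibrillin microfibrils, was the exception among the members past 2-fold. It was dim at 3.3 in D351 and read 19.7 in D16, at least 3.08-fold higher in D16, but it was dim in both clones with the higher floor. Its single probe set carries a mark. Adamtsl1, an ADAMTS-like protein without protease activity, read 13.4 in D351 and was dim at 2.0 in D16, at least 2.09-fold higher in D351, and this too was lost with the higher floor. Its other probe set was dim in both clones. Adamtsl3, a secreted relative, was measured by a pair of probe sets that both lay slightly below 0 before that scaling. The unmarked one read 195.1 in D351 and 263.1 in D16, and the marked one 184.4 in D351 and 210.5 in D16, log2 ratios of -0.43 and -0.19. Adamtsl5 read 30.1 in D351 and 35.7 in D16. The 4 measured ADAMTS and ADAMTS-like genes had a median log2 ratio of -0.34, which became 0.18 over 6 genes when the arrays were scaled to the hybridization controls, where the median of all measured genes moved to 0.59. Adamts15 and Adamts18 were dim in both clones.

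Of 7 ADAM genes, which encode membrane-bound proteases and their inactive relatives, none was above the floor in both clones. Adam32 stood at 5.0 in D351 and 11.1 in D16 and Adam18 at 6.1 in D351 and 7.8 in D16, both within the range of the negative controls. Adam5, Adam6b, Adam15, Adam24 and Adam39 were dim in both. Many ADAM genes are known for their expression in testis. Mmp9, gelatinase B, read 0.5 in D351 and 7.2 in D16, which leaves it at most just above the floor. Timp2, an inhibitor of metalloproteinases, was bright and level, at 69.4 in D351 and 65.0 in D16 (log2 ratio 0.094), and Timp4 was dim in both clones.

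**Figure D2:**
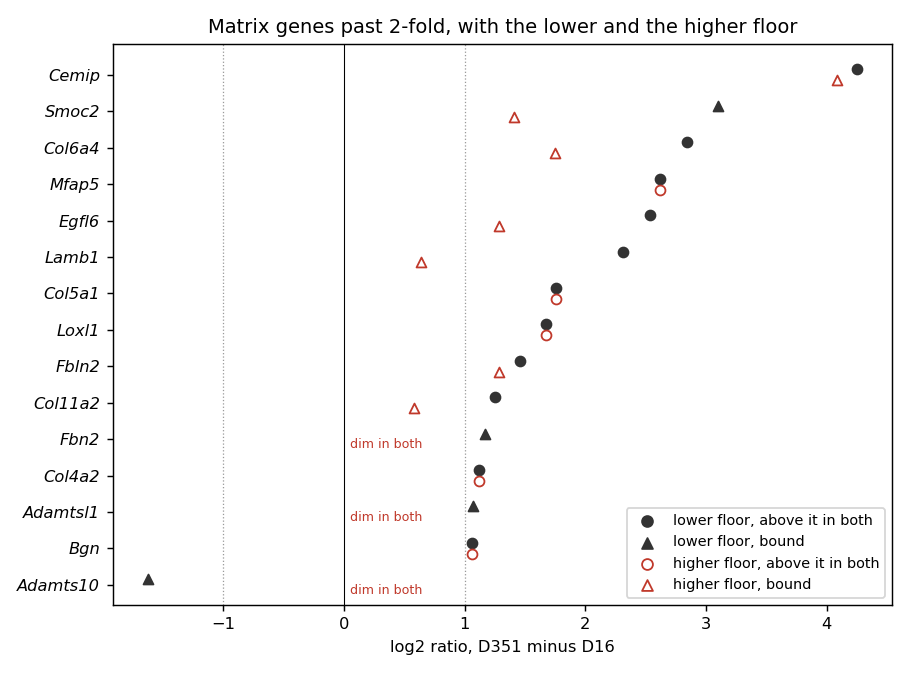
Log2 ratio, D351 minus D16, of the 15 matrix genes past 2-fold, with the floor at 6.4 (black) and at 20.7 (open red). Circles are above the floor in both clones and triangles are bounds, and dotted lines mark 2-fold. With the higher floor 10 of the 14 genes towards D351 still passed, Lamb1 and Col11a2 did not, and Fbn2, Adamtsl1 and Adamts10 fell below it in D351 and D16 alike.

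The dim values set how firm each ratio is. Among the 14 genes past 2-fold towards D351, 6 had a D16 value no higher than the brightest negative control, 11.2: Adamtsl1, Col6a4, Egfl6, Fbn2, Lamb1 and Smoc2. With the higher floor, 20 matrix genes were measured, of which 10 passed 2-fold towards D351, beside 7.91% of 2340 genes of the array, and 0 towards D16, beside 8.33%. Only 5 of these 10 were above the higher floor in both clones, so that their ratios do not depend on either floor: Bgn, Col4a2, Col5a1, Loxl1 and Mfap5.

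The marks in the identifiers matter for this list. A mark denotes a probe set whose probes were chosen under relaxed rules or that may be shared by related transcripts, and of the 56 matrix probe sets 28 had none and 28 had the mark f, i or r. The marks g and s did not occur among them. Of 12 measured probe sets without a mark, 6 passed 2-fold towards D351 (Cemip, Mfap5, Lamb1, Loxl1, Col11a2 and Adamtsl1) and 0 towards D16, beside 10.3% and 9.79% of all measured named probe sets without one. The other 6 all lay below 0, so the unmarked values fell on either side of their median of 0.41 with none between 0 and 1. Of 19 measured probe sets with a mark, 9 passed 2-fold towards D351 and 1 towards D16, beside 9.63% and 10.3% of all named probe sets with a mark, and 14 lay above 0. Their median was 0.85, beside -0.057 for all measured named probe sets with a mark and -0.020 for those without.

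The marked members differed by letter. Of 9 measured probe sets with f, 6 passed 2-fold towards D351 (Bgn, Col4a2, Col5a1, Col6a4, Fbn2 and Smoc2), beside 11.5% of named probe sets with that mark, and 0 in D16, beside 11.3%. Of 7 with i, 3 were (Col6a4, Egfl6 and Fbln2), beside 11.1%, and 0 in D16, beside 9.87%. Of 3 with r none was, beside 7.55%, and Adamts10 was at least 2-fold higher in D16, beside 9.34%. Of the 14 genes past 2-fold towards D351, 7 were measured by marked probe sets alone and 7 also or only by an unmarked one. Taken by gene through the brightest unmarked probe set, 6 of 12 measured genes were past 2-fold towards D351, beside 10.5% of 2524 genes of the array, and 0 towards D16, beside 10.1%, while over all probe sets of the array, named or not, the shares were 9.74% and 9.75%. Only 3 of the 45 genes, Adamtsl3, Col6a4 and Lamb2, had more than 1 measured probe set, and in 4 more, Adamtsl1, Col5a1, Mfap5 and Smoc2, a further probe set was dim in both clones.

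**Figure D3:**
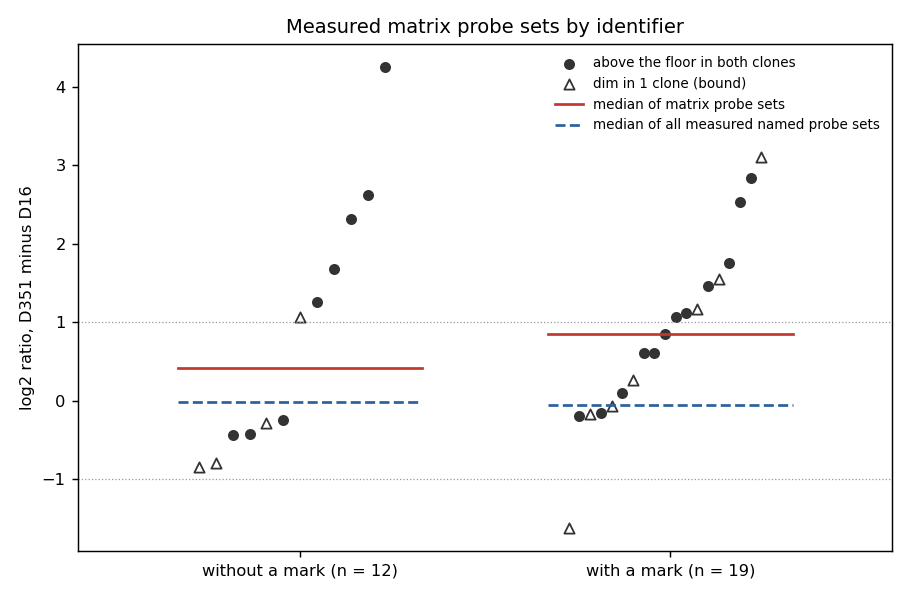
Log2 ratio, D351 minus D16, of the 31 measured matrix probe sets, 12 without and 19 with a mark in the identifier. Filled circles are above the floor in both clones and open triangles are bounds. Red lines are the medians, 0.41 without and 0.85 with a mark, dashed blue lines the medians of all measured named probe sets, and dotted lines 2-fold.

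Genes of matrix assembly and turnover outside the symbol rule were taken from 3 lists. The lists were written from general knowledge but with earlier results of these arrays known. Collagen processing partners had 7 of 30 genes on the array, 4 measured and 0 past 2-fold in either direction, with a median log2 ratio of 0.47. The brightest were the collagen galactosyltransferase Colgalt1, at 20.6 in D351 and 13.1 in D16, and the lysyl hydroxylase Plod1, at 10.5 in D351 and 16.1 in D16. Another Colgalt1 probe set read 15.5 in D351 and was dim at 4.9 in D16, a log2 ratio of at least 1.28. The 3 other measured probe sets of Plod1 lay on either side of 0, from -0.30 to 0.61. Further matrix glycoproteins and proteoglycans had 20 of 73 genes on the array and 13 measured, of which 3 passed 2-fold towards D351 and 1 towards D16. Their median was -0.076. Gpc2, a cell surface heparan sulphate proteoglycan, read 54.2 in D351 and was dim at 1.9 in D16, at least 8.47-fold higher in D351, and at least 2.62-fold over the higher floor. Agrn, agrin of basement membranes, was 2.51-fold higher in D351 (32.1 in D351 and 12.8 in D16) and the hemicentin gene Hmcn2 at least 2.38-fold (15.2 in D351, dim at 4.3 in D16). With the higher floor Agrn was at least 1.55-fold higher in D351 and Hmcn2 was dim in both. Egflam, pikachurin, which binds dystroglycan, read 13.3 in D351 and 49.2 in D16, 3.70-fold higher in D16 and at least 2.38-fold over the higher floor. Vcan, Comp, Matn3, Hapln1, Hapln3, Mmrn2 and Sparcl1 were dim in both clones.

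The list of other turnover enzymes, inhibitors and receptors had 8 of 39 genes on the array and 7 measured. Of these, 1 passed 2-fold towards D351 and 0 towards D16, and the median was 0.077. Plat, tissue plasminogen activator, read 84.6 in D351 and 41.2 in D16, a 2.05-fold difference. The secreted protease Htra1 was level and bright, at 676.3 in D351 and 608.3 in D16. Together these lists gave 4 of 24 measured genes past 2-fold towards D351 and 1 towards D16, beside 10.3% and 10.2% of all measured genes. Among the members 14 of 27 passed towards D351. Those 14 include Bgn, Egfl6 and Cemip, taken by whole symbol with earlier results known, and without them it was 11 of 24. Cemip2, the relative of Cemip with a log2 ratio of -0.080, stayed on a list. The rule itself therefore sets part of this contrast.

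**Figure D4:**
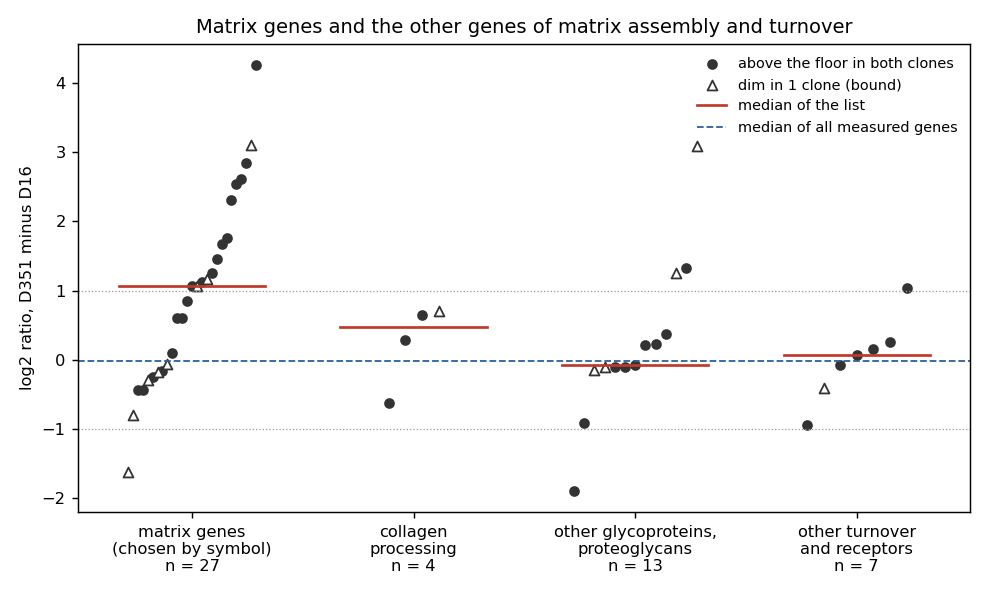
Log2 ratio, D351 minus D16, of the 27 measured matrix genes and of the measured genes on 3 lists of other matrix assembly and turnover genes (4, 13 and 7 genes). Filled circles are above the floor in both clones and open triangles are bounds. Red lines are list medians of 1.06, 0.47, -0.076 and 0.077, and the dashed blue line is the median of all measured genes, -0.022. The 27 include Bgn, Egfl6 and Cemip, taken by whole symbol with earlier results known.

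Markers of cells that the cultures could hold were sparse on this array. Of 21 markers of embryonic fibroblasts that are not matrix members, 2 were present, with summed intensities of 133.8 in D351 and 35.8 in D16. Fgf10 read 122.8 in D351 and 25.8 in D16, and by a further probe set 28.6 in D351 and 17.9 in D16. Prrx2 was level, with a log2 ratio of 0.14, and within the range of the negative controls. Of 15 smooth muscle markers 6 were present and 4 of 5 measured passed 2-fold towards D351, beside 10.3% of all measured genes. The other measured one, Tpm1, lay below 0 (10.2 in D351 and 13.4 in D16, log2 ratio -0.39). Summed intensities of the 6 were 1101.4 in D351 and 124.9 in D16. Lmod1 (288.2 in D351, dim at 2.6 in D16), Itga8 (678.3 in D351 and 77.6 in D16) and Synpo2 (105.2 in D351 and 24.7 in D16) made up most of these sums. Acta2, smooth muscle actin, read 15.4 in D351 and was dim at 4.7 in D16, and Myocd, the smooth muscle coactivator, was dim in both. Of 18 endothelial markers 6 were present and 3 measured. Of these, 1 passed 2-fold towards D351 and 1 towards D16, beside 10.3% and 10.2% of all measured genes. Flt1 read 87.6 in D351 and was dim at 1.3 in D16, at least 13.7-fold higher in D351 and at least 4.23-fold over the higher floor. Egfl7 was dim at 3.8 in D351 and read 19.5 in D16, at least 3.05-fold higher in D16. With the higher floor Egfl7 was dim in both clones. Kdr, the VEGF receptor gene by which mesoangioblasts are often recognised, read 9.5 in D351 and was dim at 1.6 in D16. Sox17, Sox18 and Mmrn2 were dim in both clones. Of 10 blood cell markers only Itga2b was present (49.9 in D351 and 38.7 in D16), and of 10 cartilage and bone markers only Sox9 was measured (97.7 in D351 and 93.1 in D16). The part of fibroblast or smooth muscle transcripts in the matrix difference was not tested, and fewer cells of a type and less RNA per cell cannot be told apart in such cultures.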

How the data were processed

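Total RNA of 2 clones was hybridised to 1 array each. The deposited table holds 1 linear intensity per probe set; how the authors summarised and scaled the probes is not given in the sources used here. The mean with 2% trimmed at each end was 20.01 on both arrays, and values were used as they stood. D351 held 4 exact zeros. The table had 11934 rows, of which 66 are control probe sets and were set aside. Of the others, 7717 had 1 gene in the platform annotation, 150 several and 4001 were unnamed here. All 45 member genes were found in the RefSeq table of GRCm38.p6 and 0 symbols changed.

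The symbol rule, the subfamilies and the gene lists were chosen with earlier results of these arrays known. Genes named are all members past 2-fold, the brightest of each subfamily, those with several measured probe sets, and genes of the 3 matrix pathway lists that passed 2-fold or, where none did, were brightest; others, cell type markers included, are named to account for every member. With 1 array per clone nothing was tested. The call step was run on simulated arrays, with changes larger than 2-fold planted only in bright probe sets. The simulated noise was smaller than the scatter between probe sets of a gene. That run therefore says nothing about ratios near 2-fold or about dim genes. Alternatives were 4 scalings, floors at the 25th and 75th percentile, a pseudocount, unmarked or averaged probe sets, a 3-fold rule, the list without Col4a3bp and Loxhd1 and, chosen after seeing the data, the list without Bgn, Egfl6 and Cemip. Scripts ran in Python 3.11.15 (matplotlib 3.10.9, statsmodels 0.14.6, scipy 1.17.1, pandas 2.3.3, numpy 2.4.6).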

Additional observations from a re-analysis of the deposited data

How the results depend on the processing

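Across 12 alternative settings, 71 of 89 values for the groups moved little, 16 moved further and 2 changed sign. A count moved little within 1.5-fold, a single gene within the SD of 0.68 between probe sets of a gene, and a median within a limit that is about the standard error this SD gives it. Scaling to the hybridization controls shifts genes by slightly less than this SD. The shift alone could therefore not take a gene past its limit, and all 25 gene values of that setting counted as moved little. Quantile normalization, lowess centring (span 0.3), equal medians and the average over a gene's measured probe sets left every group value so, and all 15 members past 2-fold passed again. Neither Col4a3bp nor Loxhd1 was present, so leaving them out could change nothing, although the values of that setting are counted among the 71. Leaving out Bgn, Egfl6 and Cemip, a setting chosen after seeing the data, gave a median of 0.7313.

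Scaling to the hybridization controls moved the median of all measured genes to 0.59 and the medians of the matrix genes to 1.524, of marked probe sets to 1.539, of other collagens to 1.796, of laminins to 1.284, of microfibril genes to 1.836, of matricellular genes to 2.474 and of ADAMTS genes, with a change of sign, to 0.1829. The ADAMTS change of sign comes with that common shift. With the floor at the 25th percentile, 1.8, the count towards D16 was 6 of 38 genes, the matrix median 0.6081 and the median of other collagens -0.1829 over 7 genes, 3 of them not measured before. With the floor at 20.7 the count towards D16 was 0, the marked median 1.064 and the matricellular median 1.175. Unmarked probe sets alone gave 6 genes towards D351, 0 towards D16 and a median of 0.41 over 12 genes, and Col6a4 turned to -0.8455. The 3-fold rule left 8 of 27 genes towards D351 and 1 towards D16, and the share of all measured genes past 3-fold was not computed. With a pseudocount of 6.4, 14 of the 15 genes stayed past 2-fold, all but Col11a2. Of 219 values for single genes, 206 moved little, 12 moved further and 1, that of Col6a4, changed sign from a ratio past 2-fold. Sign changes of ratios within 2-fold were not counted as such. Scaled to the hybridization controls, Adam18, Adamtsl3, Adamtsl5, Lama4 and Mfap3l went from below 0 to above it. Causes beyond these constructions were not tested. Low signals limit the ratios of dim genes: that of Smoc2 was at least 4.93 log2 with the floor at 1.8 and at least 1.41 with the floor at 20.7. No paired analysis was possible because each clone has 1 array and there is no test to block.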
